A study of Drosophila melanogaster with 6 samples.

Results

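The fly mitochondrial genome is a small circular chromosome that encodes 37 genes: 13 for proteins, 2 for ribosomal RNAs and 22 for transfer RNAs. All 37 were found among the 15682 genes of the count table, as the FlyBase identifiers whose symbol begins with mt:, and all are described here by the counts of 6 RNA-seq libraries. Fat bodies were taken from Drosophila melanogaster females, 7 to 10 days old, of 2 groups with 3 libraries each. FB-Dp110DN flies carried the fat body driver FB-GAL4 together with UAS-Dp110DN, which encodes Dp110 with a myc tag and a kinase that cannot bind ATP properly. Dp110 is the catalytic part of the class I phosphoinositide 3-kinase of the insulin pathway, and this form acts as a dominant negative. The control, FB-GAL4 flies, had the driver without the transgene. Both groups shared the white Dahomey background with Wolbachia, the driver was constitutive rather than inducible, and each library pooled fat bodies of several flies, in a number on which the labels and the methods differ. The comparison asks whether lower Dp110 activity in the fat body changed the amounts of the RNAs transcribed in mitochondria.

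The mitochondrial proteins are all subunits of oxidative phosphorylation, the process that passes electrons from nutrients to oxygen and uses the resulting proton gradient to make ATP. Complex I takes electrons from NADH, complex III passes them to cytochrome c, complex IV reduces oxygen, and complex V is the ATP synthase. Each of these complexes also holds subunits encoded in the nucleus, and complex II has nuclear subunits alone. Mitochondrial genes are transcribed from both strands as long precursors by a dedicated polymerase, and in much of the genome tRNAs lie between the other genes and are cut out to release them. The levels of mature RNAs cut from 1 precursor can therefore differ through processing, poly(A) tails and stability as well as through transcription. In the BDGP6 annotation, 9 protein genes lie on the plus strand, while mt:ND1, mt:ND4, mt:ND4L, mt:ND5 and both rRNA genes lie on the minus strand. Since the counts were made on the earlier build BDGP5, gene order and length are given without coordinates.

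The libraries held 22607341 to 36870161 counts. Pi3K92E, the gene of Dp110, had 892, 1246 and 343 CPM (counts per 1e+06 of the TMM-scaled library size) in FB-Dp110DN libraries 1, 2 and 3, against 81.0, 89.9 and 94.1 CPM in FB-GAL4 libraries 1, 2 and 3, so that all libraries matched their labels, with the excess smallest in FB-Dp110DN library 3. Reads of the transgene and of the native gene cannot be told apart. The 9 fat body markers, which include the yolk proteins and the lipoprotein gene apolpp, took 4.83 to 6.88% of the counts in FB-Dp110DN libraries and 2.60 to 6.98% in FB-GAL4 libraries. Replicate 3 stood apart in both groups, with the lowest fat body share and the highest share of 23 muscle structure genes of its group. That muscle share was 1.18, 1.27 and 4.34% in FB-Dp110DN libraries 1, 2 and 3, against 1.05, 0.923 and 3.02% in FB-GAL4 libraries 1, 2 and 3. None of these muscle genes was at 0, and the lowest had 138 counts in a library. The muscle genes also moved with the group: the estimate was higher in FB-Dp110DN for 22 of 23, against 53.6% of all tested genes. Their median log2 fold change was 0.60, with medians of 0.18, 0.85 and 0.86 in pairs 1, 2 and 3. Most fat body markers did so too, with 7 of 8 tested higher at a median of 0.58, and medians of 0.01, 0.48 and 0.92 in pairs 1, 2 and 3. Fbp1 went the other way, at -2.27, with 359 counts in FB-Dp110DN library 3 against 4665 in FB-GAL4 library 3. Fbp2, which was not tested, had 239 counts in FB-Dp110DN library 3 against 4814 in FB-GAL4 library 3. The part of either list in the results below was not tested.

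Mitochondrial RNA made up a large portion of every library. The 37 genes held 8.31, 8.36 and 17.1% of all counts in FB-Dp110DN libraries 1, 2 and 3, against 8.02, 6.84 and 12.3% in FB-GAL4 libraries 1, 2 and 3. The mean share was 11.2 ± 5.04% in FB-Dp110DN and 9.05 ± 2.86% in FB-GAL4 (SD, n = 3 each). The FB-Dp110DN library had the larger share within each same-numbered pair, and the groups overlapped, since FB-GAL4 library 3 lay above FB-Dp110DN libraries 1 and 2. Wilson 95% intervals of these shares reached at most 0.0127 percentage points to either side, which is far narrower than the spread between libraries. Such intervals cover only counting error within a library, and not all of that, because PCR copies are not independent molecules. In bulk tissue, fewer cells of a type and less RNA per cell cannot be told apart, and the same holds for mitochondrial number and RNA per mitochondrion.

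**Figure D1:**
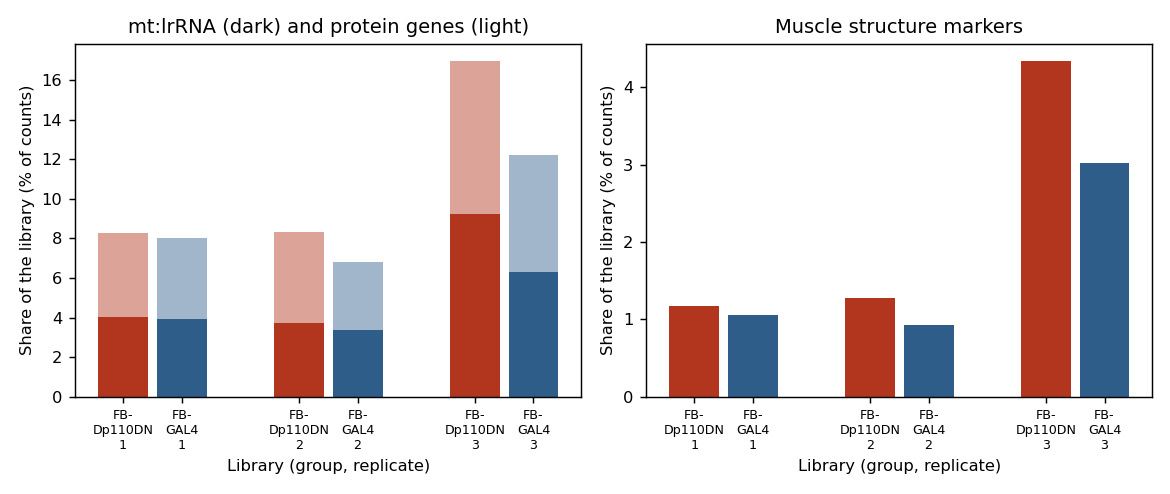
Share of each library's counts (%) taken by mitochondrial transcripts (left, mt:lrRNA dark and the 13 protein genes light) and by 23 muscle structure genes (right), with libraries arranged by replicate. Replicate 3 is highest in each group in both panels, at 9.22% mt:lrRNA and 4.34% muscle genes in FB-Dp110DN, against 6.31% and 3.02% in FB-GAL4.

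A single RNA accounted for about as many counts as all 13 mRNAs together. That RNA was mt:lrRNA, the RNA of the large mitochondrial ribosomal subunit. It took 44.8 to 54.0% of the mitochondrial counts in FB-Dp110DN libraries and 48.6 to 51.4% in FB-GAL4 libraries. The protein genes took 45.6 to 55.1% in FB-Dp110DN libraries and 48.4 to 51.2% in FB-GAL4 libraries. By contrast mt:srRNA, the RNA of the small ribosomal subunit, lies on the same strand beyond mt:tRNA:Val-TAC and took 0.158 to 0.405% in FB-Dp110DN libraries and 0.183 to 0.245% in FB-GAL4 libraries. The ratio of mt:lrRNA to mt:srRNA counts was 222, 283 and 133 in FB-Dp110DN libraries 1, 2 and 3, against 239, 271 and 210 in FB-GAL4 libraries 1, 2 and 3. It was lowest in replicate 3 of each group, and the groups overlapped. Both subunits are needed in equal number in a working ribosome. The libraries were made by an mRNA protocol, so the counts report RNA as that protocol captures it, and rRNA and mRNA levels are not on a common scale of molecules.

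Among the mRNAs, levels per length of gene spanned almost 4 orders of magnitude. Mean levels over the 6 libraries were 15725 CPM per kb for mt:CoIII, 11532 for mt:CoI, 7632 for mt:Cyt-b, 6345 for mt:ATPase6 and 4485 for mt:CoII. The complex I mRNAs stood lower, at 1884 CPM per kb for mt:ND1, 1210 for mt:ND4, 849 for mt:ND5 and 345 for mt:ND3. The last were mt:ATPase8 at 30.0, mt:ND2 at 21.5, mt:ND4L at 9.54 and mt:ND6 at 2.26 CPM per kb. This order held in each of the 6 libraries for 11 of the 12 neighbouring pairs. The exception was mt:Cyt-b, which lay above mt:ATPase6 in 5 of 6 libraries and below it, at 0.935 of its level, in FB-GAL4 library 3. The narrowest steps that kept their order were mt:ATPase8 over mt:ND2, by 1.03 to 1.84 times, and mt:ATPase6 over mt:CoII, by 1.09 to 1.91 times.

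Genes that lie side by side on 1 strand were far apart in level. mt:ATPase8 overlaps mt:ATPase6 by 7 bases in the annotation, and the pair is known as a shared mRNA, yet mt:ATPase6 had 541, 1013 and 835 counts for each count of mt:ATPase8 in FB-Dp110DN libraries 1, 2 and 3, against 980, 969 and 1200 in FB-GAL4 libraries 1, 2 and 3. mt:ND4 overlaps mt:ND4L by 1 base, and had 300, 746 and 1004 counts for each count of mt:ND4L in FB-Dp110DN libraries 1, 2 and 3, against 246, 453 and 1125 in FB-GAL4 libraries 1, 2 and 3. The annotated lengths of 162 bases for mt:ATPase8 and 675 for mt:ATPase6, or 291 for mt:ND4L and 1339 for mt:ND4, differ far less than the counts do. The count of a gene in such a pair depends on how reads that touch both genes were assigned, and the strand setting of the counting was not given. The low values of mt:ATPase8 and mt:ND4L are therefore uncertain as RNA levels. mt:ND2 overlaps neither neighbour, and mt:CoI still had 616 to 1266 counts for each of its counts in FB-Dp110DN libraries and 764 to 1020 in FB-GAL4 libraries. mt:ND6 ends 3 bases before mt:Cyt-b on the same strand, and had 215 counts over all libraries against 1560424 for mt:Cyt-b. Whether alignment or read assignment lowered the counts of mt:ND2 or mt:ND6 was not tested, so their levels are uncertain too.

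**Figure D2:**
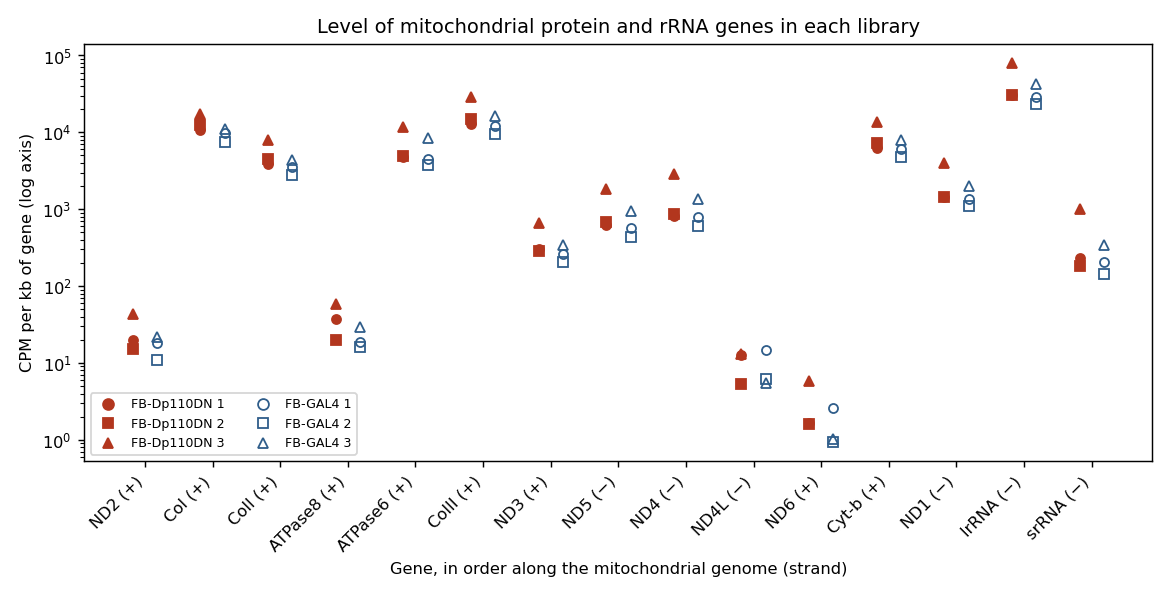
Level of the 13 protein and 2 rRNA genes in each library, as CPM per kb of gene on a log axis, with genes in their order along the mitochondrial genome and the strand in brackets. mt:lrRNA is at the top, followed by mt:CoIII and mt:CoI, and mt:ND6, at a mean of 2.26 CPM per kb, is lowest, while replicate 3 (triangles) is the highest library of its group for most genes.

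Of the 37 genes, 20 had any count and 16 had enough counts to be tested: the 13 protein genes, both rRNA genes and mt:tRNA:Tyr-GTA. These 16 were compared with the quasi-likelihood test of edgeR, with the replicate number in the model and Benjamini-Hochberg adjustment over 10398 genes. None had an adjusted p under 0.05, and 3 genes of the whole table (0.0289%) did. The lowest edgeR adjusted p among the mitochondrial genes was 0.153, shared by mt:ATPase8 and mt:ND3. At an unadjusted p under 0.05, 4 of 16 were higher in FB-Dp110DN, against 13.7% of all tested genes. With the Wald test of DESeq2, 5 of 16 were higher at an adjusted p under 0.05, against 6.16% of all tested genes. These 5 were mt:CoI, mt:CoII, mt:CoIII, mt:ND3 and mt:ND5, and without replicate 3 DESeq2 called 0 of 16, against 0.84% of all tested genes as higher. DESeq2 gave no adjusted p for mt:ND6 and mt:tRNA:Tyr-GTA, nor, without replicate 3, for mt:ATPase8 and mt:ND4L, so these could not be called there. The methods name 3 biological repeats, and nothing says that the libraries of a group came from separately reared flies. With the replicate number in the model, the p-values measure how steady the difference was over these same-numbered pairs, not the spread between all samples.

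The estimates pointed mostly one way. The edgeR estimate was higher in FB-Dp110DN for 15 of 16 tested mitochondrial genes, against 53.6% of all tested genes, and 13 of 16 were higher in all 3 same-numbered pairs, against 28.3% of all tested genes. The genes are cut from few precursors and share the libraries, so these counts are not independent observations. The median log2 fold change of the 13 protein genes was 0.52, and that of all tested genes was 0.04. The pairs differed in size: the protein genes had median log2 fold changes of 0.11 in pair 1, 0.51 in pair 2 and 0.96 in pair 3, where all tested genes had medians of -0.01, 0.04 and 0.03. Without replicate 3 the edgeR median of the protein genes was 0.35, and none of the 16 genes had an unadjusted p under 0.05 in edgeR or DESeq2, where 13.1% and 7.56% of all tested genes were higher at that threshold. None of the 16 had groups that did not overlap, against 11.6% of all tested genes with every FB-Dp110DN library above every FB-GAL4 library. FB-GAL4 library 3 was in most cases above FB-Dp110DN libraries 1 and 2.

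**Figure D3:**
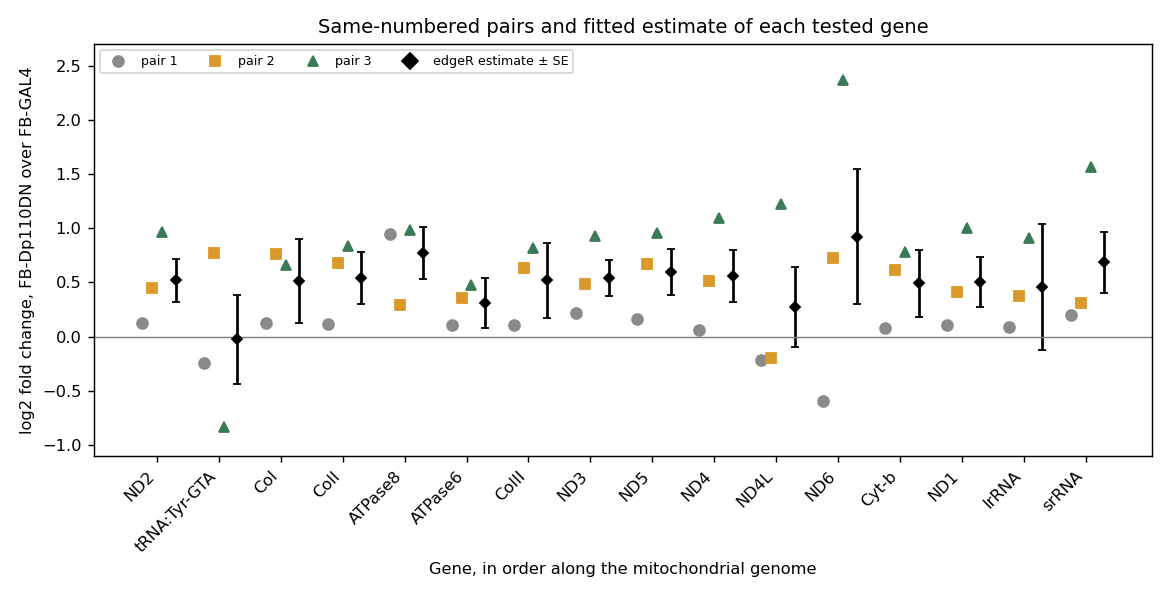
log2 fold change of FB-Dp110DN over FB-GAL4 for each tested mitochondrial gene, with 1 point for each same-numbered pair of libraries and a diamond for the edgeR estimate with its SE. Pair 3 lies highest for most genes, with a median of 0.96 over the protein genes against 0.11 in pair 1, and mt:ND4L, mt:ND6 and mt:tRNA:Tyr-GTA have pairs on both sides of 0.

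Complex I takes 7 of its subunits from the mitochondrial genome, which form the membrane arm that pumps protons. Their log2 fold changes had a median of 0.55, and 5 of 7 were higher in all 3 pairs, against 28.3% of all tested genes. mt:ND3 had 108, 102 and 234 CPM in FB-Dp110DN libraries 1, 2 and 3, against 93.1, 72.6 and 123 CPM in FB-GAL4 libraries 1, 2 and 3. The groups overlapped, because FB-GAL4 library 3 exceeded FB-Dp110DN libraries 1 and 2. The log2 fold change of mt:ND3 was 0.55 ± 0.17 (SE), and the adjusted p was 0.153 in edgeR and 0.0399 in DESeq2. mt:ND5 had 1084, 1178 and 3150 CPM in FB-Dp110DN libraries 1, 2 and 3, against 969, 742 and 1621 CPM in FB-GAL4 libraries 1, 2 and 3. FB-Dp110DN library 3 stood far above the other 5, and FB-GAL4 library 3 came next. The log2 fold change of mt:ND5 was 0.60 ± 0.21 (SE), with an adjusted p of 0.164 in edgeR and 0.0270 in DESeq2.

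mt:ND4 and mt:ND1, also on the minus strand, were likewise highest in FB-Dp110DN library 3. mt:ND4 had 1095, 1154 and 3824 CPM in FB-Dp110DN libraries 1, 2 and 3, against 1048, 809 and 1791 CPM in FB-GAL4 libraries 1, 2 and 3, and a log2 fold change of 0.56 ± 0.24 (SE, edgeR adjusted p = 0.204). mt:ND1, which joins the membrane arm to the arm that binds NADH, had 1358, 1355 and 3750 CPM in FB-Dp110DN libraries 1, 2 and 3, against 1263, 1020 and 1868 CPM in FB-GAL4 libraries 1, 2 and 3. The estimate for mt:ND1 was a log2 fold change of 0.51 ± 0.23 (SE, edgeR adjusted p = 0.215). For both genes FB-Dp110DN library 3 was highest, libraries 1 of the groups nearly coincided, and FB-GAL4 library 3 lay above FB-Dp110DN libraries 1 and 2.

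The remaining complex I genes had the lowest levels of that complex. mt:ND4L and mt:ND6 rested on few counts, 493 and 215 over all libraries, against 3933 for mt:ND2. mt:ND2 had 20.6, 15.3 and 43.8 CPM in FB-Dp110DN libraries 1, 2 and 3, against 18.8, 11.2 and 22.4 CPM in FB-GAL4 libraries 1, 2 and 3, and its log2 fold change was 0.52 ± 0.20 (SE, edgeR adjusted p = 0.177). mt:ND4L had 3.65, 1.55 and 3.81 CPM in FB-Dp110DN libraries 1, 2 and 3, against 4.26, 1.78 and 1.59 CPM in FB-GAL4 libraries 1, 2 and 3. It was lower in FB-Dp110DN in pairs 1 and 2 and higher in pair 3, and its log2 fold change was 0.28 ± 0.37 (SE), and -0.21 without replicate 3. mt:ND6 had 20, 29 and 89 counts in FB-Dp110DN libraries 1, 2 and 3, against 48, 12 and 17 counts in FB-GAL4 libraries 1, 2 and 3. Its pairs gave log2 fold changes of -0.59, 0.72 and 2.37, and the estimate of 0.92 ± 0.62 (SE) came to -0.023 without replicate 3. No direction can be given for mt:ND4L or mt:ND6.

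Complex III has 1 mitochondrial subunit, cytochrome b, which carries the sites where ubiquinol is oxidised and ubiquinone reduced. Its gene mt:Cyt-b had 7201, 8249 and 15441 CPM in FB-Dp110DN libraries 1, 2 and 3, against 6820, 5388 and 8969 CPM in FB-GAL4 libraries 1, 2 and 3. The pairs ran the same way, at log2 fold changes of 0.08, 0.61 and 0.78, and the groups overlapped. The estimate was 0.49 ± 0.31 (SE), with an adjusted p of 0.332 in edgeR and 0.0549 in DESeq2.

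Complex IV takes its 3 core subunits from the mitochondrial genome, and their estimates lay close together. mt:CoI, which holds the site where oxygen is reduced, had 16372, 19394 and 26967 CPM in FB-Dp110DN libraries 1, 2 and 3, against 14994, 11465 and 17084 CPM in FB-GAL4 libraries 1, 2 and 3. The overlap was narrow here: FB-Dp110DN library 1 alone fell below FB-GAL4 library 3. mt:CoII, which takes electrons from cytochrome c, had 2637, 3048 and 5383 CPM in FB-Dp110DN libraries 1, 2 and 3, against 2438, 1903 and 3024 CPM in FB-GAL4 libraries 1, 2 and 3. Again FB-Dp110DN library 1 was the one that lay below FB-GAL4 library 3. mt:CoIII had 10267, 11738 and 22530 CPM in FB-Dp110DN libraries 1, 2 and 3, against 9512, 7587 and 12806 CPM in FB-GAL4 libraries 1, 2 and 3, of which the last lay above FB-Dp110DN libraries 1 and 2.

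The 3 estimates lay between 0.52 and 0.54, and all 3 genes were higher in every pair. The tools differed over them. DESeq2 gave adjusted p-values of 0.0401 for mt:CoI, 0.0384 for mt:CoII and 0.0432 for mt:CoIII, while edgeR gave 0.407, 0.205 and 0.358. The SE in edgeR was 0.39 for mt:CoI and 0.35 for mt:CoIII, against 0.23 for each in the legacy form of the same edgeR test, where their adjusted p-values were 0.214 and 0.209.

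Complex V takes from the mitochondrial genome the proton channel subunit of mt:ATPase6 and the small stabilising subunit of mt:ATPase8. mt:ATPase6 had 3238, 3281 and 7919 CPM in FB-Dp110DN libraries 1, 2 and 3, against 3008, 2556 and 5695 CPM in FB-GAL4 libraries 1, 2 and 3. It had the smallest estimate of the 9 protein genes with over 10000 counts, at a log2 fold change of 0.31 ± 0.23 (SE) and an edgeR adjusted p of 0.399. mt:ATPase8 had 5.99, 3.24 and 9.49 CPM in FB-Dp110DN libraries 1, 2 and 3, against 3.07, 2.64 and 4.75 CPM in FB-GAL4 libraries 1, 2 and 3. Among the tested genes it had the highest log2 fold change in pair 1, at 0.95, against 0.29 in pair 2 and 0.99 in pair 3. The estimate for mt:ATPase8 was 0.77 ± 0.24 (SE), with an adjusted p of 0.153 in edgeR and 0.0793 in DESeq2, and it shares bases with mt:ATPase6.

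Over the 9 protein genes with more than 10000 counts, all 9 were higher in FB-Dp110DN in each pair, against 28.3% of all tested genes. The log2 fold changes of the 9 ran between 0.06 and 0.22 in pair 1, between 0.36 and 0.76 in pair 2 and between 0.48 and 1.09 in pair 3. The range was thus narrow in pair 1 and wider in pairs 2 and 3. Which genes were ahead changed with the pair. With mt:lrRNA and mt:srRNA included, the 5 minus-strand genes had a median of 1.01 in pair 3, with a range of 0.91 to 1.56, against a median of 0.80 and a range of 0.48 to 0.93 for the 6 plus-strand genes. In pair 2 the order was the other way, with medians of 0.41 for the minus strand and 0.62 for the plus strand, and in pair 1 the medians were 0.11 and 0.11. No strand was thus ahead in all pairs.

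Replicate 3 of both groups stood apart in the make-up of the mRNA pool. mt:CoI formed 37.7, 39.2 and 30.2% of the protein gene counts in FB-Dp110DN libraries 1, 2 and 3, against 37.3, 36.3 and 32.2% in FB-GAL4 libraries 1, 2 and 3. Replicate 3 was the lowest of each group. Complex I mRNAs had 0.125, 0.111 and 0.201 counts for each complex IV count in FB-Dp110DN libraries 1, 2 and 3, against 0.126, 0.127 and 0.165 in FB-GAL4 libraries 1, 2 and 3. Here replicate 3 was the highest of each group, and replicates 1 and 2 lay close together. The shares of mt:CoII, at 6.03 to 6.15% in FB-Dp110DN libraries and 5.70 to 6.07% in FB-GAL4 libraries, and of mt:Cyt-b, at 16.6 to 17.3% in FB-Dp110DN libraries and 16.9 to 17.1% in FB-GAL4 libraries, hardly varied.

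Both ribosomal RNAs had their highest level in FB-Dp110DN library 3. mt:lrRNA had 40736, 40225 and 105771 CPM in FB-Dp110DN libraries 1, 2 and 3, against 38183, 31048 and 56266 CPM in FB-GAL4 libraries 1, 2 and 3. FB-Dp110DN library 3 was far above the rest, and FB-GAL4 library 3 was second. The log2 fold changes of mt:lrRNA were 0.09, 0.37 and 0.91 in pairs 1, 2 and 3. Its estimate was 0.46 ± 0.58 (SE), with an adjusted p of 0.615 in edgeR and 0.0884 in DESeq2. In the legacy form of the edgeR test the SE was 0.27 and the adjusted p 0.311. mt:srRNA had 184, 142 and 793 CPM in FB-Dp110DN libraries 1, 2 and 3, against 160, 114 and 269 CPM in FB-GAL4 libraries 1, 2 and 3. Its log2 fold changes were 0.20 and 0.31 in pairs 1 and 2 and 1.56 in pair 3, and the estimate was 0.69 ± 0.28 (SE, edgeR adjusted p = 0.191).

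Transfer RNAs were almost absent from the counts. These short RNAs carry amino acids to the ribosome and are not usual products of an mRNA library. Of the 22 genes, 17 had no count in any library, which allows up to 3 counts in each, or 0.0814 to 0.133 counts per 1e+06 of the library total. The 22 genes span 62 to 72 bases, less than the length of a read. Their counts thus also depend on how reads that touch a neighbouring gene were assigned, and the bound is on assigned counts rather than RNA level. mt:tRNA:Gln-TTG had 2 counts in FB-Dp110DN library 1 and 2 in FB-GAL4 library 1. mt:tRNA:Met-CAT had 4 counts in FB-GAL4 library 1 and 1 in FB-GAL4 library 3. mt:tRNA:Trp-TCA had 4 counts in FB-Dp110DN library 1 and 1 in FB-Dp110DN library 3, against 1 each in FB-GAL4 libraries 1 and 2. mt:tRNA:Cys-GCA, which overlaps it by 8 bases on the other strand, had 1 count each in FB-Dp110DN libraries 2 and 3, against 2 in FB-GAL4 library 2. No group difference was detectable for these genes at this depth.

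mt:tRNA:Tyr-GTA was the exception among the tRNA genes. It had 32, 61 and 12 counts in FB-Dp110DN libraries 1, 2 and 3, against 59, 25 and 25 counts in FB-GAL4 libraries 1, 2 and 3. The gene ends 5 bases from mt:CoI, on the opposite strand, and reads of the strands may not have been kept apart. Replicate 3 had the fewest counts in FB-Dp110DN and, by CPM, the lowest level in both groups, where mt:CoI was at its highest. The log2 fold changes of mt:tRNA:Tyr-GTA were -0.24, 0.77 and -0.84 in pairs 1, 2 and 3, and the estimate of -0.02 ± 0.41 (SE, edgeR adjusted p = 0.975) changed sign with the processing, so no direction can be given.

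Nuclear genes of the same complexes had estimates of a like size. For all 63 tested nuclear subunits of complexes I, III, IV and V the estimate was higher in FB-Dp110DN, against 53.6% of all tested genes. The median log2 fold change of the 63 was 0.53. None passed an edgeR adjusted p of 0.05, 54 were higher at an unadjusted p under 0.05, against 13.7% of all tested genes, and 39 were higher at an adjusted p under 0.05 in DESeq2, against 6.16% of all tested genes. Without replicate 3 the estimates of all 63 were still higher, at a median of 0.39, with 21 at an unadjusted p under 0.05 in edgeR, against 13.1% of all tested genes, and 0 at an adjusted p under 0.05 in DESeq2, against 0.84%. By complex, the medians were 0.48 for 33 nuclear subunits of complex I, 0.61 for 8 of complex III, 0.56 for 11 of complex IV and 0.53 for 11 of complex V, where the mitochondrial subunits had 0.55, 0.49, 0.52 and 0.54. Of the 63, 60 were higher in all 3 pairs, against 28.3% of all tested genes. The groups did not overlap for 8 of the 63, a share near the 11.6% of all tested genes. Whether the mitochondrial and nuclear sets differed was not tested.

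The 6 nuclear genes of smallest p were levy and COX5B of complex IV, ND-75, ND-20 and ND-18 of complex I, and COX7AL2, a relative of a complex IV subunit gene. levy, which encodes the subunit VIa, had 228, 263 and 427 CPM in FB-Dp110DN libraries 1, 2 and 3, against 180, 158 and 267 CPM in FB-GAL4 libraries 1, 2 and 3. The log2 fold change of levy was 0.59 ± 0.14 (SE), and the adjusted p was 0.153 in edgeR and 0.00997 in DESeq2. ND-75, a subunit with iron-sulphur clusters, had 465, 646 and 791 CPM in FB-Dp110DN libraries 1, 2 and 3, against 363, 372 and 473 CPM in FB-GAL4 libraries 1, 2 and 3. FB-Dp110DN library 1 alone lay below FB-GAL4 library 3. ND-20 had 237, 316 and 298 CPM in FB-Dp110DN libraries 1, 2 and 3, against 193, 166 and 183 CPM in FB-GAL4 libraries 1, 2 and 3, and its groups did not overlap. The log2 fold changes of these genes were 0.63 ± 0.15 (SE) for ND-75, 0.64 ± 0.16 for ND-20, 0.57 ± 0.13 for ND-18, 0.59 ± 0.14 for COX5B and 0.85 ± 0.21 for COX7AL2, each with an edgeR adjusted p of 0.153.

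The listed nuclear genes that maintain or express the mitochondrial genome did not share that direction. The lists include genes of mitochondrial DNA maintenance, such as PolG1, mtDNA-helicase and mtSSB. They leave out the mitochondrial ribosomal proteins and translation factors. Of 32 tested genes in 3 lists, 10 had a higher estimate in FB-Dp110DN, against 53.6% of all tested genes, and 22 had a lower one. The median log2 fold change of the 32 was -0.12, with a range of -0.49 to 0.27. None passed an adjusted p of 0.05 in edgeR or in DESeq2, and at an unadjusted edgeR p under 0.05 there was 1, AspRS-m, the mitochondrial aspartyl-tRNA synthetase, with a log2 fold change of -0.37, where 12.5% of all tested genes were lower at that threshold. Without replicate 3 there were 4 of 32, against 12.2% of all tested genes: AspRS-m, PolG1, mtSSB and mtDNA-helicase, all lower in FB-Dp110DN, and none passed an adjusted p of 0.05. The medians were -0.09 for 9 genes of mitochondrial DNA transcription and maintenance, -0.01 for 9 genes of RNA processing and stability and -0.19 for 14 mitochondrial aminoacyl-tRNA synthetases.

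PolrMT, the mitochondrial RNA polymerase, had 51.5, 62.2 and 46.5 CPM in FB-Dp110DN libraries 1, 2 and 3, against 46.4, 54.9 and 42.9 CPM in FB-GAL4 libraries 1, 2 and 3. It was slightly higher in each pair, at log2 fold changes of 0.15, 0.18 and 0.11, and its estimate was 0.15 ± 0.12 (SE, edgeR adjusted p = 0.439). TFAM, which packages mitochondrial DNA and helps to start transcription, had 60.0, 66.9 and 71.0 CPM in FB-Dp110DN libraries 1, 2 and 3, against 70.8, 69.9 and 69.6 CPM in FB-GAL4 libraries 1, 2 and 3. Its estimate was -0.09 ± 0.12 (SE, edgeR adjusted p = 0.645). SLIRP1, PolG2 and mtTFB1 were listed at 0 in all 6 libraries, and bsf, which stabilises mitochondrial mRNAs, was not analysed here. Those 0 values are of assigned counts, and whether the RNAs were absent was not tested.

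**Figure D4:**
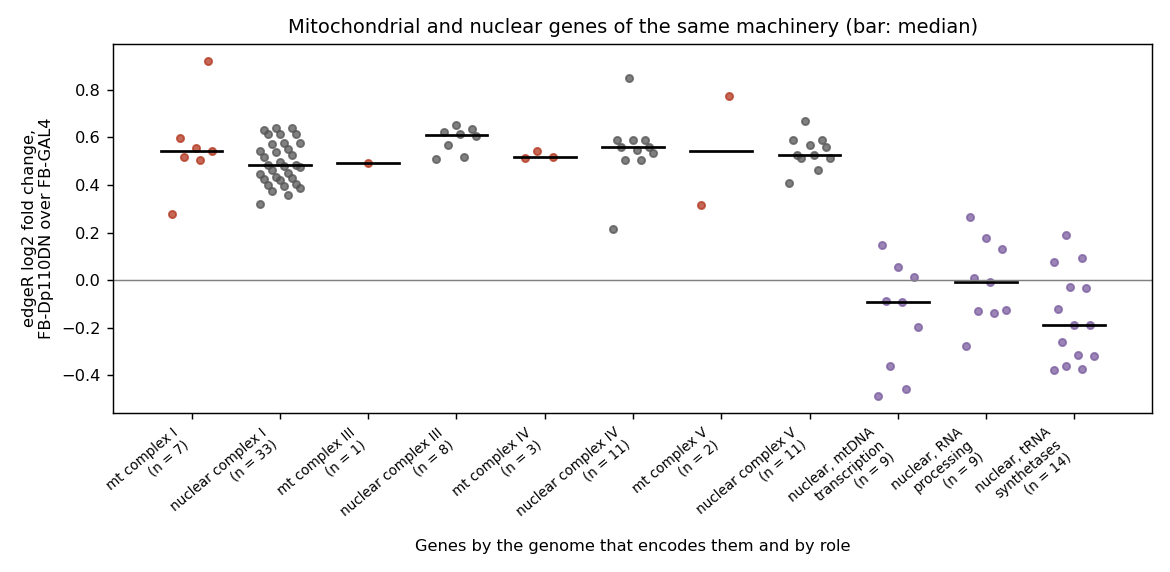
edgeR log2 fold change of FB-Dp110DN over FB-GAL4 for the mitochondrial protein genes (red), the nuclear subunits of the same complexes (grey) and 3 lists of nuclear genes for mitochondrial gene expression (purple), with 1 point for each gene and a bar at the median. All 63 nuclear subunits lie above 0, with a median of 0.53, and the 32 expression genes lie on both sides, with a median of -0.12.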

How the data were processed

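Adult fat bodies of 3 FB-Dp110DN and 3 FB-GAL4 samples were sequenced in paired-end mode. The authors aligned reads with TopHat2 2.0.11 to BDGP5 and counted them per gene with HTSeq; raw counts were deposited. Library names came from titles; FB-GAL4 2 and 3 share a sample description, so their numbers, and with them pairs 2 and 3, rest on the titles alone. The table also held the authors' DESeq2 comparison (mean, fold change, error, statistic and p-values), which was not used. Of the identifiers, 15001 matched a symbol.

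Counts were tested in R 4.3.3 with edgeR 4.0.16 (filterByExpr, 10398 genes, TMM, quasi-likelihood test in its newer form, group and replicate number); the SE is the log2 fold change, without its sign, divided by the root of F. Pair values used log2 CPM with a prior count of 2. The methods pair samples by processing day. Deviations from group means correlated at 0.42, 0.19 and 0.59 for pairs 1, 2 and 3. FB-Dp110DN 2 was closer to FB-GAL4 1, at 0.22, and FB-GAL4 2 was closer to FB-Dp110DN 1, at 0.38. By these values pair 2 did not stand out as a pair. Alternatives used DESeq2 1.42.0 and limma 3.58.1 (voom), other scalings and filters, each pair left out, and no block; DESeq2 without replicate 3 was added after seeing the data. The code was tested on simulated data.

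Members and lists were chosen with earlier results of these data known. Named were all protein and rRNA genes, tRNA genes with any count, PolrMT, TFAM, bsf, SLIRP1, and the 6 nuclear genes of smallest p with 1 sign in all pairs; Pi3K92E checked the labels. AspRS-m, PolG1, PolG2, mtSSB, mtDNA-helicase and mtTFB1 were named after their values were seen. COX7AL2 stayed in its list by the rule on symbols. Lists of ovary, gut, oenocyte, neuron and hemocyte markers were also summed.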

Additional observations from a re-analysis of the deposited data

How the results depend on the processing

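The 16 tested mitochondrial genes had the same direction and call in 179 of 192 combinations of gene and alternative. A gene without an adjusted p was taken as not called. No mitochondrial gene passed an adjusted p of 0.05 except in the DESeq2 Wald test on all libraries, which called 5. None of the listed nuclear genes for mitochondrial gene expression passed in any setting. Over the whole table, edgeR called 3 genes, against 0 with no replicate block, 5 with no filter and 993 in DESeq2. Leaving out 1 pair gave 0 to 862 calls, the 862 without replicate 3, and no mitochondrial gene was among them. The test itself differed there. The prior degrees of freedom, which set how strongly edgeR draws the variance of a gene to the common trend, were infinite without replicate 3. They were 4.10 as reported, 3.64 without replicate 1 and 3.05 without replicate 2, so the 862 calls are not on a like footing with the others. DESeq2 without replicate 3, an alternative chosen after seeing the data, called 127 genes and none of the mitochondrial ones. The cause of these differences was not tested. The median log2 fold change of the protein genes was 0.60 with no replicate block and 0.35 to 0.74 with 1 pair left out, with the lowest value without replicate 3. The log2 fold change of mt:tRNA:Tyr-GTA, -0.02 as reported, was 0.047 with no replicate block, 0.010 with DESeq2 size factors, 0.096 without replicate 1, -0.52 without replicate 2, and 0.27 in edgeR or 0.28 in DESeq2 without replicate 3. With 1 pair left out, mt:ND4L ranged from -0.21 to 0.58 and mt:ND6 from -0.023 to 1.77, both lowest without replicate 3. At an unadjusted p under 0.05, the number of mitochondrial genes that were higher, with the share of all tested genes in brackets, was 4 as reported (13.7%), 0 with no replicate block (8.92%), 13 in DESeq2 (15.4%), 7 with DESeq2 size factors (16%), 8 without replicate 1 (12.3%), 1 without replicate 2 (6.83%) and 0 without replicate 3 (13.1%). Few counts limit what can be said of the tRNA genes and mt:ND6.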

Other observations

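Other marker lists also varied with the library or the group, and their part in the results was not tested. Gut proteases took 2.57, 2.36 and 0.500% of the counts in FB-Dp110DN libraries 1, 2 and 3, against 2.26, 1.58 and 0.651% in FB-GAL4 libraries 1, 2 and 3. Ovary markers took 0.314 to 0.489% in FB-Dp110DN libraries and 0.517 to 0.573% in FB-GAL4 libraries, without overlap. Of these markers, 5 of 15 had a higher estimate in FB-Dp110DN, against 53.6% of all tested genes, at a median log2 fold change of -0.44. Oenocyte markers took 0.855 to 1.61% in FB-Dp110DN libraries and 0.809 to 1.64% in FB-GAL4 libraries. Neuron markers took 0.0167 to 0.0200% in FB-Dp110DN libraries and 0.0150 to 0.0166% in FB-GAL4 libraries, and 5 of 6 had a higher estimate in FB-Dp110DN, at a median of 0.49; for 4 of 6 the groups did not overlap, against 11.6% of all tested genes. Hemocyte markers took 0.0171 to 0.0200% in FB-Dp110DN libraries and 0.0146 to 0.0194% in FB-GAL4 libraries, and 4 of 4 had a higher estimate in FB-Dp110DN, at a median of 0.36.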
